A study of Mus musculus with 267 samples.

Results

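H3K4me3, the trimethylation of lysine 4 of histone H3, was measured by ChIP-seq in bone marrow–derived macrophages (BMDMs) of 5 inbred mouse strains, without IL-4 and after 24 hours of IL-4. The H3K4me3 libraries were chosen as the H3K4me3 columns of the strains' histone tables, which gave 20 of the 267 samples of the series, with 2 basal and 2 IL-4 libraries in each strain. The strains were SPRET/EiJ and PWK/PhJ, which are wild-derived, and BALB/cJ, NOD/ShiLtJ and C57BL/6J, and are called SPRET, PWK, BALB, NOD and C57 here. All cells came from healthy female mice of 8 to 12 weeks without engineered alleles, were grown from marrow in M-CSF, and received either no IL-4 or 20 ng/ml IL-4. The sources used here do not say whether the 2 libraries of a group came from different animals or from pooled marrow, so every p-value measures only the spread between these libraries. BMDMs are a culture model of macrophages and lack the signals of a tissue.

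H3K4me3 is deposited mainly around the start sites of active and poised genes, by the COMPASS family of methyltransferases, and its breadth into the gene body follows how strongly a gene is transcribed. IL-4 acts through its receptor and the Janus kinases to phosphorylate STAT6, which binds DNA as a dimer and turns on the alternative macrophage program. Genes of that program encode lectins, integrins, chemokines and metabolic enzymes, and the transcription factors EGR2 and PPARγ act downstream of or beside STAT6.

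A value is the number of H3K4me3 tags in the 1000 bp around the centre of a reproducible ATAC-seq peak, scaled by the authors to 10000000 tags per library. The libraries held between 10317281 and 20509497 tags, so that 16 scaled tags stood for 16.5 to 32.8 reads. Regions numbered 67742 in C57, 54022 in BALB, 68932 in NOD, 60175 in PWK and 54755 in SPRET, and 29462 had centres within 500 bp in all 5 strains. The share of a library's tags that lay in the regions was 58.0% to 73.5% (median 66.4%) in basal libraries and 44.4% to 64.6% (median 59.98%) after IL-4, and the mean share was lower after IL-4 in each of the 5 strains. A lower share of tags in regions and less H3K4me3 per cell cannot be told apart here, and nor can fewer cells of a type and less mark per cell. Each comparison over strains is therefore given with the values scaled by library total and again with median-ratio scaling, which sets the typical region equal across libraries. The 10 macrophage markers were all measured, with summed promoter tags of 2890 to 4070 in basal libraries and 2037 to 3798 after IL-4. Of 19 markers of T, B, NK and other cells, 1 (Ms4a1) had a matched promoter region, at 0 to 3.81 tags in any library. The other 18 had no region matched in all strains, and 4 of them had a promoter region in at least 1 strain, where none passed the fold rule used below for single strains. Elane stood at 0 to 2.23 tags there, and Col1a1, Pdgfra and Klrb1c at 3.64 to 43.9.

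Itgax, which encodes the integrin subunit CD11c, had the strongest H3K4me3 rise of any promoter among the matched regions with at least 16 tags, and Cx3cr1, which encodes the fractalkine receptor, had the strongest fall. Introns of Tarbp2, a partner of Dicer, and Atp6v0d2, a subunit of the vacuolar proton pump, were among the strongest rises away from promoters. These 4 sequences are printed as examples out of a larger set of windows that was searched. Both promoters are RefSeq windows of mouse GRCm38.p6 (mm10), from 250 bases before to 50 after the start, read along the gene, and the introns are the central 300 bases of the region on the plus strand of the same build. Capitals mark TTCNNNNGAA, the half-site pair that STAT6 prefers, which reads the same on both strands.
Itgax promoter, chr7:128129300-128129599, plus strand: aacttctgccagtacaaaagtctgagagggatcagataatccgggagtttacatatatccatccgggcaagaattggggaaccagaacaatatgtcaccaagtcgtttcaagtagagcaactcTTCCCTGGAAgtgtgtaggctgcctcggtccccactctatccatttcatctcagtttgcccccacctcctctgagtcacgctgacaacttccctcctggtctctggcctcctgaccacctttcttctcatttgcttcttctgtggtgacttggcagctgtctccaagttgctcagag
Cx3cr1 promoter, chr9:120068247-120068546, minus strand: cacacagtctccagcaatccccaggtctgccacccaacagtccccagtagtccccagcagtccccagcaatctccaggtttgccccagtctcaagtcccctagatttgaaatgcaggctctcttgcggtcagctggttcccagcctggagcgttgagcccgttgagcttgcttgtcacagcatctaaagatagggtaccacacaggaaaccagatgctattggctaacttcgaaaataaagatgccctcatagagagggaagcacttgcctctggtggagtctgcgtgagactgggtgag
Tarbp2 intron, chr15:102520567-102520866, plus strand: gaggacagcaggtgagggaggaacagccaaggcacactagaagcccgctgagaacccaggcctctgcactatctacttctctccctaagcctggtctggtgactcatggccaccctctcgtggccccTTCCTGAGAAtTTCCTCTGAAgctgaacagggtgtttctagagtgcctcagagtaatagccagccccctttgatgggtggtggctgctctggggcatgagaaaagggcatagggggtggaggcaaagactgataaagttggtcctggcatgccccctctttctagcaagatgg
Atp6v0d2 intron, chr4:19918925-19919224, plus strand: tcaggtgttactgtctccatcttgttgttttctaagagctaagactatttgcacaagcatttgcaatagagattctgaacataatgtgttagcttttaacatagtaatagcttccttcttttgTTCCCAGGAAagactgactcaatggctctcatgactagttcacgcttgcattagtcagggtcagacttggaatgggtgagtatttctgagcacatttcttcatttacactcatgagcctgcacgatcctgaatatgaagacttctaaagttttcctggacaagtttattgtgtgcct
The Itgax promoter and the Atp6v0d2 intron each hold 1 match, starting at base 124 of the printed run in both. The Tarbp2 intron holds 2, starting at bases 128 and 139. These letters do not occur in the Cx3cr1 window. Of the other windows searched, the one near Por, also a rise, holds 1 match. Those of the rises at Mgl2, Pip5k1c, Ppfibp2, Plekha3, Mpp6, Fcgr2b, Tpcn2 and Lrp12 hold no match. Those of the falls at Tlr2, Ccm2, C5ar1, Nlrp3, Apobec1 and upstream of Bhlhe40 hold no match either. Of all 32851 RefSeq promoters of this length, 6.95% hold the motif.

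At the Itgax promoter (mm10 chr7:128128929-128129929) H3K4me3 was low in basal cells and was gained in every strain. Basal and IL-4 libraries held 2.18 and 5.85 against 64.2 and 126 tags in C57, 8.81 and 13.2 against 66.1 and 84.4 in BALB, 7.84 and 18.2 against 46.3 and 115 in NOD, 21.4 and 32.7 against 81.4 and 112 in PWK, and 61.2 and 87.8 against 235 and 171 in SPRET. The groups did not overlap within any strain, as at 34.1% (SPRET) to 62.7% (C57) of each strain's own regions with at least 16 tags, and SPRET started highest. The shared log2 fold change, fitted by limma over the 5 strains on log2(tags + 1), was 2.54 ± 0.24 (SE; adjusted p = 4.26e-09), and by strain it ran from 4.29 in C57 to 1.44 in SPRET. Mgl2, which encodes the galactose-type lectin CD301b, gained H3K4me3 at its promoter (mm10 chr11:70129601-70130601) in the same way. Its tags were 6.55 and 9.26 against 27.5 and 82.7 in C57, 12.2 and 6.28 against 32.3 and 39.5 in BALB, 7.13 and 14 against 50.9 and 70.5 in NOD, 8.39 and 1.39 against 11.3 and 49.3 in PWK, and 5.10 and 9.20 against 23.8 and 27.1 in SPRET. All 10 IL-4 libraries lay above the basal libraries of their strain, and the shared log2 fold change was 2.19 ± 0.25 (limma adjusted p = 1.85e-07).

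Pip5k1c, which encodes a kinase that makes the membrane lipid PIP2, showed its rise inside the gene rather than at its start. The intron region 9494 bp downstream of the start (mm10 chr10:81301999-81302999) held 26.2 and 28.3 against 153 and 197 tags in C57, 21.7 and 29.5 against 145 and 142 in BALB, 11.4 and 16.2 against 103 and 124 in NOD, 34.3 and 16.7 against 116 and 137 in PWK, and 22.1 and 62.3 against 107 and 108 in SPRET. Over the 10 libraries of a condition the mean went from 26.9 ± 14.3 to 133 ± 28.6 tags (SD), a log2 fold change of 2.38 ± 0.17 (limma adjusted p = 1.22e-11). The promoter of the same gene in C57 held 394 and 407 tags at basal and 306 and 337 after IL-4, so it did not share the gain. Over all C57 promoters with at least 16 tags the median log2 ratio was -0.31 with library totals, so a lower start was common in that strain. The Tarbp2 intron whose sequence is printed held 15.3 and 12.7 against 72.7 and 60.9 tags in C57, 7.46 and 12.6 against 45.5 and 35.9 in BALB, 13.5 and 11.9 against 58.3 and 67.0 in NOD, 12.2 and 15.3 against 45.9 and 52.8 in PWK, and 11.9 and 6.37 against 67.0 and 32 in SPRET. Its log2 fold change was 2.08 ± 0.17 (limma adjusted p = 2e-10). The Atp6v0d2 intron held 6.10 to 22.7 tags in the basal libraries and 26.2 to 74.5 after IL-4, without overlap in any strain, and rose by a log2 fold change of 2.14 ± 0.21 (limma adjusted p = 5.81e-09).

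**Figure D1:**
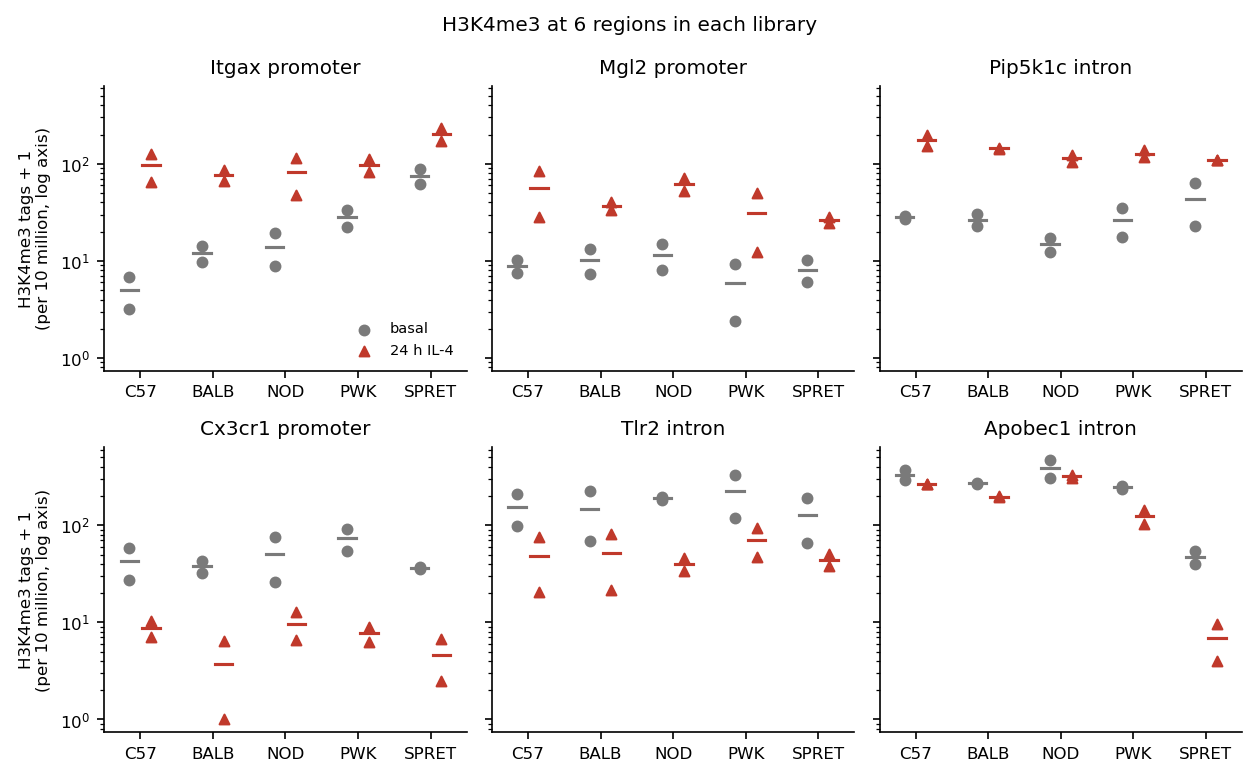
H3K4me3 tags + 1 (per 10000000, log axis) at 6 matched regions, with the 2 basal libraries (grey circles) and 2 IL-4 libraries (red triangles) of each strain and their mean as a bar. Itgax, Mgl2 and Pip5k1c are higher after IL-4 in all 5 strains, Cx3cr1 and Tlr2 lower, and at Apobec1 SPRET starts far below the other strains and falls to 2.98 and 8.72 tags.

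Other strong rises lay away from gene starts. An intron of Ppfibp2, which encodes a liprin (mm10 chr7:107665034-107666034), went from 0 to 10.6 tags in the basal libraries to 11.2 to 71.8 after IL-4, a log2 fold change of 2.78 ± 0.28 (limma adjusted p = 1.33e-08), the highest among the matched regions with at least 16 tags. A region at -5148 bp from the start of Tpcn2, which encodes an endolysosomal cation channel, rose by 2.72 ± 0.29 on the log2 scale (limma adjusted p = 2.81e-08). A region at -70117 bp from the start of Lrp12, which encodes a lipoprotein receptor relative, rose by 2.15 ± 0.24 (limma adjusted p = 6.96e-08). The rule that named these regions took the 12 strongest shared rises, of which 4 lay in mitochondrial DNA, which carries no nucleosomes. Those 4 (mt-Nd1, mt-Co1, mt-Nd5 and mt-Nd6) had log2 fold changes of 2.18 to 2.55 with SEs of 0.49 to 0.53, and their libraries overlapped, since the mean over 5 mitochondrial regions was 1.76 to 139 tags at basal and 14.2 to 283 after IL-4. H3K27ac gave 2.13 to 2.67 at the same 4 regions. A further 4 nuclear regions, next in the same order, were added after their values were seen. The Fcgr2b intron (the inhibitory IgG receptor) rose by 2.08 ± 0.24, the Vasn promoter inside Coro7 by 2.03 ± 0.24, a region at -14553 bp from the start of Por (the electron donor of cytochromes P450) by 1.99 ± 0.28, and the Mpp6 intron by 1.98 ± 0.21.

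At the Cx3cr1 promoter (mm10 chr9:120067794-120068794) H3K4me3 was almost lost. Its tags were 26.2 and 57.1 against 6.11 and 9.36 in C57, 31.2 and 42.1 against 0 and 5.39 in BALB, 24.95 and 74.4 against 5.55 and 11.9 in NOD, 53.4 and 91.0 against 8.06 and 5.34 in PWK, and 34.8 and 36.1 against 1.49 and 5.82 in SPRET. No IL-4 library reached the lowest basal library of its own or any other strain, and the shared log2 fold change was -2.95 ± 0.28 (limma adjusted p = 3.35e-09). H3K4me3 also fell inside Tlr2. The Tlr2 intron 2125 bp from the start (mm10 chr3:83839142-83840142), in the gene of a receptor for bacterial lipoproteins, held 210 and 98.0 against 73.9 and 19.5 tags in C57, 226 and 68.5 against 81.0 and 20.7 in BALB, 195 and 181 against 45.4 and 32.8 in NOD, 331 and 117 against 91.8 and 45.7 in PWK, and 189 and 65.1 against 49.9 and 36.8 in SPRET. In BALB the higher IL-4 library lay above the lower basal one, and in the other 4 strains the groups did not overlap. The fold change was -1.73 ± 0.25 (log2, limma adjusted p = 7.05e-06).

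The other named falls were spread over promoters and introns. The promoter of Lst1, which encodes a leukocyte membrane protein, fell by 1.63 on the log2 scale (SE 0.16, limma adjusted p = 9.04e-09), from 127 to 341 tags in the basal libraries to 22.6 to 128. Introns of C5ar1, the receptor of complement C5a, and Ccm2, a scaffold protein, fell by 1.54 (SE 0.19) and 1.82 (SE 0.25). Promoters of Clec4n, which encodes the fungal sensor Dectin-2, Bmf, which encodes a pro-apoptotic BCL2 relative, Ifitm6 and Traf3ip3 fell by 1.49 to 1.70. A region at -16050 bp from the start of Nlrp3, the inflammasome sensor, fell by 1.84 (SE 0.34) and an intron of Gramd1b by 1.66 (SE 0.26). The region at -89403 bp from the start of Bhlhe40 (mm10 chr6:108570726-108571726), the nearest gene and a repressor of the basic helix-loop-helix family, fell by 1.72 (SE 0.17, limma adjusted p = 6.46e-09). All of these falls had the same direction in the 5 strains, as the rule for naming them required.

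**Figure D2:**
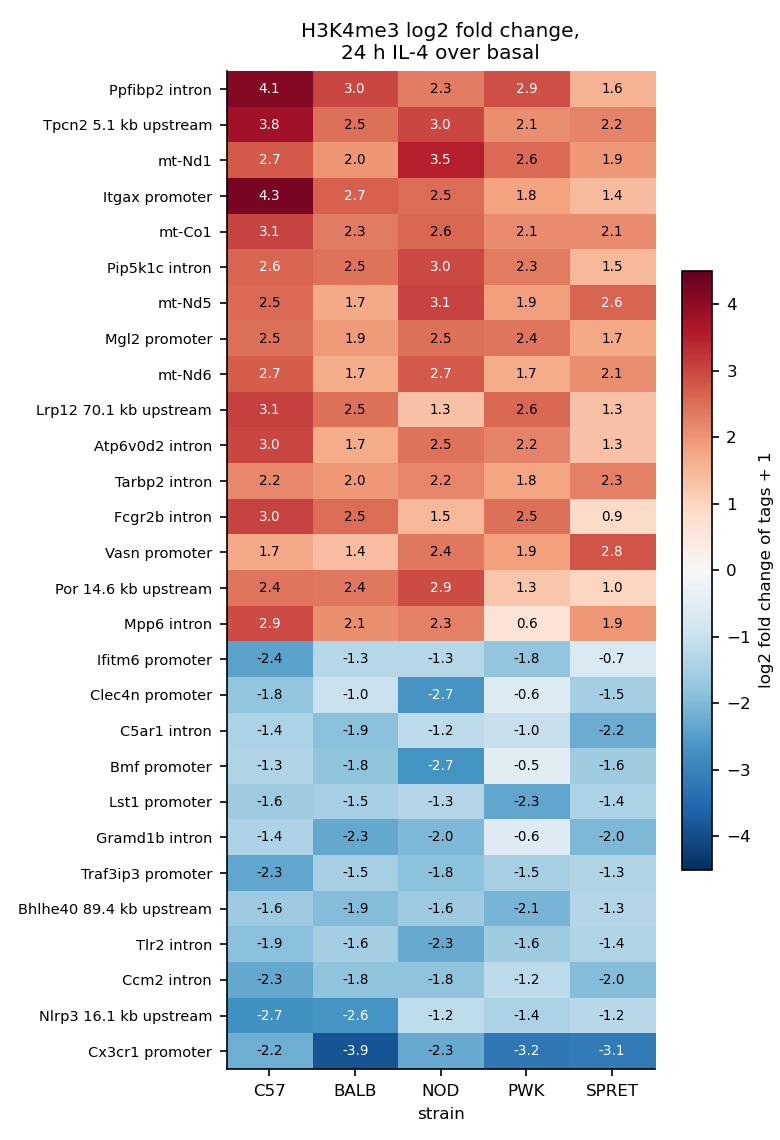
Heat map of the H3K4me3 log2 fold change (tags + 1, IL-4 over basal) in each strain (columns) at the named shared rises and falls (rows), with the value printed in each cell and red for higher after IL-4. The rows were chosen for one sign in all 5 strains, and the sizes differ, with Itgax at 4.3 in C57 and 1.4 in SPRET.

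Over all 29462 matched regions, limma called a shared rise at 1552 (5.27% of regions tested) and a shared fall at 5191 (17.6%) with library totals, together 22.9%. With median-ratio scaling it called 1681 rises (5.71%) and 467 falls (1.59%), so that the share of calls that were rises went from 23% to 78.3%. A block for the replicate number, with library totals, gave 2408 rises and 8804 falls. Leaving out 1 library moved the 6743 calls in all to between 3150 (without NOD IL-4 replicate 2) and 9220 (without NOD IL-4 replicate 1). The median log2 fold change of all regions moved from -0.10 to 0.09 between the scalings, and that of the 15604 regions with at least 16 tags from -0.21 to -0.0015. In what follows a region rose or fell only where it was called in the same direction under both scalings and held at least 16 tags in either condition, which left 432 rises and 457 falls. Without the 2 libraries that had under 50% of their tags in regions (NOD IL-4 replicate 2 and PWK IL-4 replicate 1), 338 of the 432 and all 457 were called in that direction, and without C57 239 and 434 were, the first of these fits being chosen after the data were seen. The 432 rises were mostly weakly marked and away from promoters. Their median went from 26.5 to 49.9 tags, 146 held under 16 tags at basal, 59 were promoters, and 240 lay in introns and 99 between genes. The 457 falls lay nearer to starts and were more strongly marked than the rises, but not more so than regions in general. Their median went from 291 to 188 tags, and 218 (47.7%) were promoters, while 142 lay in introns. Over all 15604 regions with at least 16 tags the median went from 321 to 276 tags, and 53.3% were promoters.

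Distance from the nearest start showed the same split. Of the 427 nuclear rises, 14.5% lay within 0.5 kb of a start and 23.9% between 2 and 5 kb. Of the 457 falls, 50.3% lay within 0.5 kb and 11.8% between 2 and 5 kb. Over all 15599 nuclear regions with at least 16 tags the shares were 55.7% and 7.02%. At promoters with more than 100 tags, which numbered 7906, 33 rose and 3396 fell with library totals and 75 rose and 192 fell with median ratios.

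Acetylation of H3 lysine 27 (H3K27ac), which marks regulatory elements in use, RNA polymerase II (Pol II) and H3K4me2 were counted at the same regions in 20, 28 and 20 other libraries. Of the 432 H3K4me3 rises, Pol II rose at 294 and fell at 5, against 7.77% and 8.46% of all matched regions. H3K27ac rose at 193 and fell at 20 with library totals (8.01% and 32.6% of all regions), and rose at 309 and fell at 10 with median ratios. H3K4me2 rose at 36 and fell at 197 (1.85% and 74.4% of all regions), and with median ratios it rose at 134 and fell at 11. Of all regions with at least 16 tags, Pol II rose at 5.63% and fell at 7.41% with library totals. H3K27ac did so at 3.65% and 34.2% of them, and H3K4me2 at 0.25% and 94.4%. With median ratios, H3K27ac rose at 12.2% and fell at 13.6% of all regions with at least 16 tags, and H3K4me2 at 1.12% and 1.68%. At the 457 falls H3K27ac fell at 339 and rose at 9 with library totals, and fell at 258 and rose at 29 with median ratios. Pol II fell at 219 and rose at 15 there, and at 255 and 21 with median ratios. H3K4me2 fell at 444 of the falls (97.2%) with library totals, near the 94.4% of all regions with at least 16 tags. With median ratios it fell at 48 of them (10.5%), against 1.68%. Across the 15604 regions with at least 16 tags the log2 fold change of H3K4me3 had a Pearson r of 0.51 with that of Pol II, 0.47 with H3K27ac and 0.48 with H3K4me2. These r describe regions of shared cultures, which are not independent. At the Itgax promoter H3K27ac rose by 1.55 ± 0.21 and Pol II by 2.26 ± 0.21 (log2 fold change and SE), while H3K4me2 had -0.36 and was not called. At Cx3cr1 H3K27ac fell by 3.26 and Pol II by 3.38. The Mpp6 intron gained H3K4me3 with a Pol II log2 fold change of 1.33 and an H3K27ac log2 fold change of 0.46 ± 0.25 that did not pass the test with library totals (limma adjusted p = 0.138) and passed with median ratios (0.82, limma adjusted p = 0.0359).

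A few regions moved in opposite directions. The region far upstream of Bhlhe40 had 102 and 63.9 against 30.6 and 21.1 H3K4me3 tags in C57, 128 and 93.6 against 37.2 and 20.7 in BALB, 110 and 59.7 against 31.5 and 21 in NOD, 186 and 139 against 55.6 and 24.9 in PWK, and 116 and 87.1 against 29.8 and 51.4 in SPRET. H3K4me3 fell there without overlap in any strain, while H3K27ac rose by 1.24 ± 0.25 and Pol II by 1.14 ± 0.26 on the log2 scale. It was 1 of 9 H3K4me3 falls at which H3K27ac rose under both scalings (29 under median ratios), the others lying nearest to Csrnp1, Rbbp6, Dnah1, Rnf19b, Socs1, Foxn3, Wsb2 and Coq10b.

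**Figure D3:**
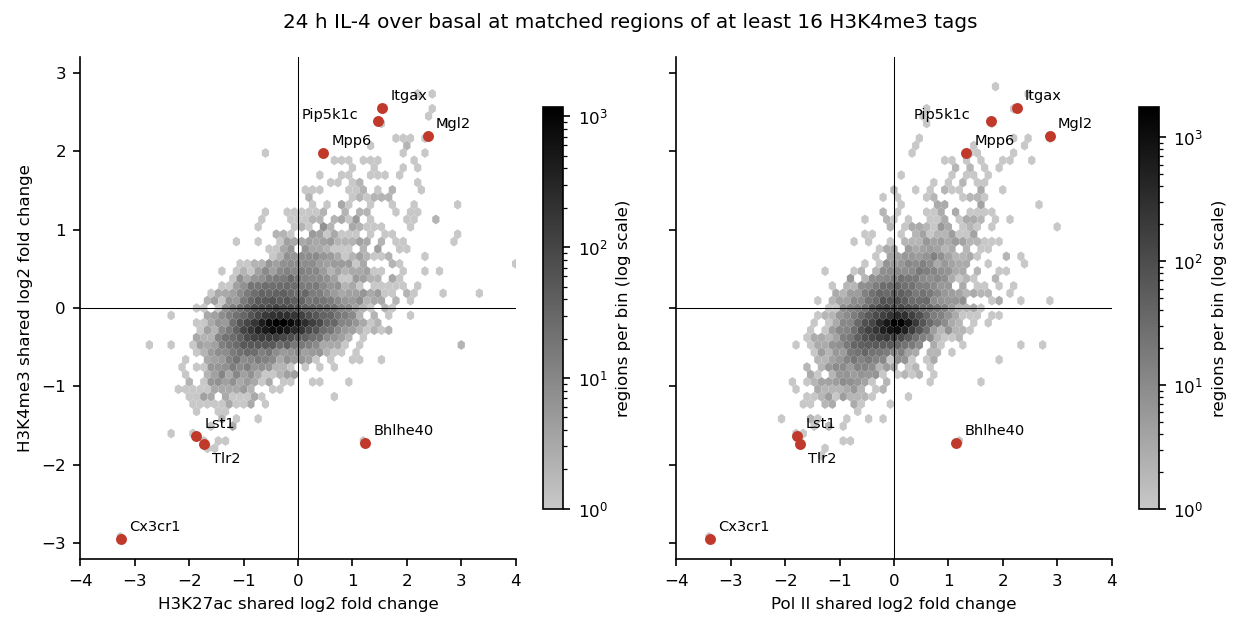
Shared log2 fold change of H3K4me3 (vertical) against that of H3K27ac (left) and Pol II (right) at the matched regions with at least 16 H3K4me3 tags, with grey shade for the number of regions per bin on a log scale and 8 named regions in red. Most named regions lie along the diagonal, and the region upstream of Bhlhe40 lies at -1.72 for H3K4me3 against 1.24 for H3K27ac and 1.14 for Pol II.

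Socs1, which encodes the feedback inhibitor of cytokine receptor kinases and is a direct STAT6 target, had less H3K4me3 at its start and more over its end after IL-4. At the promoter the tags in C57 were 491 and 550 at basal and 282 and 305 after IL-4, and the shared log2 fold change was -0.62 ± 0.09 (limma adjusted p = 6.84e-06) with library totals and -0.42 with median ratios. Over the same promoter H3K27ac rose by 1.55 and Pol II by 1.89. At the region annotated as the gene end, 2357 to 2616 bp downstream of the start, H3K4me3 went from 10.9 and 4.39 to 228 and 183 tags in C57, from 7.13 and 4.21 to 129 and 82.4 in NOD, from 8.39 and 0 to 92.6 and 145 in PWK, and from 4.25 and 0.71 to 153 and 41.7 in SPRET. BALB had no region there, so the 4 measured strains all gained the mark, by 15.97-fold in NOD to 28.2-fold in SPRET on tags + 1. In C57 and PWK the exon 1169 and 1129 bp from the start rose 2.92-fold and 2.88-fold. Bhlhe40 and Pstpip1 were looked at in the same way after their values were seen. At Bhlhe40 in C57 the promoter region at -67 bp from the start held 391.6 and 334 against 318 and 347 tags, and the 3′ UTR region 4971 bp downstream held 3.64 and 3.41 against 89.2 and 56.2, a 16.3-fold rise on tags + 1. The promoter region 675 bp downstream, which had the most tags and stands for the gene in the list of factors, held 421 and 204 against 590 and 644, so at Bhlhe40 the start did not fall as at Socs1. At Pstpip1, which encodes an adaptor of the actin cytoskeleton, the C57 promoter fell from 304 and 342 to 147 and 153 tags while an intron 22173 bp downstream rose from 22.6 and 7.31 to 72.1 and 71.0.

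**Figure D4:**
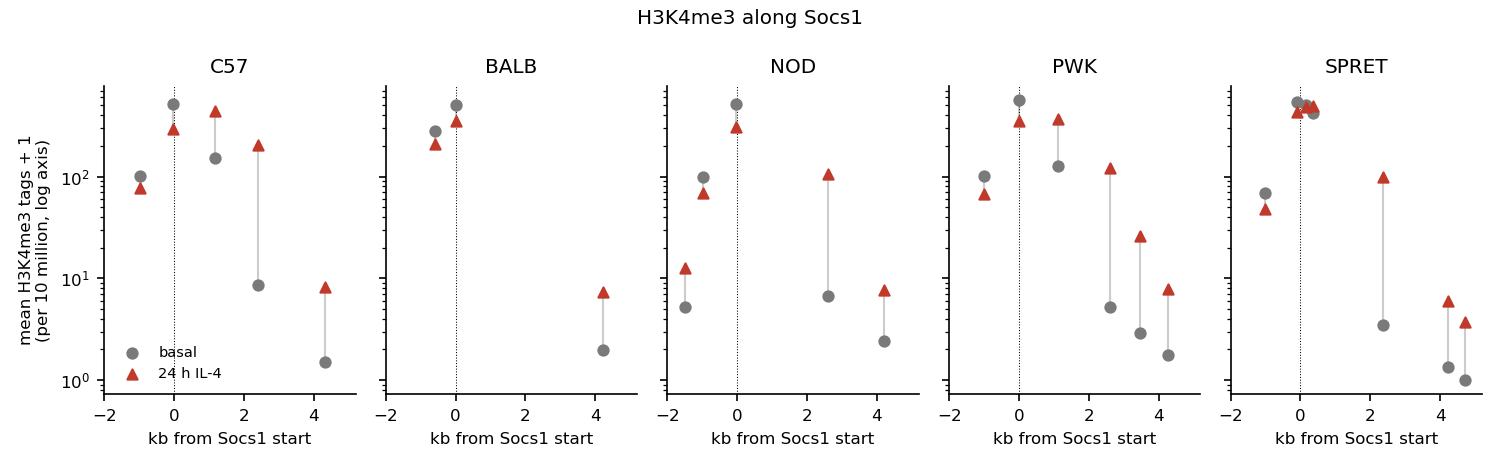
Mean H3K4me3 tags + 1 (per 10000000, log axis) at each region within about 5 kb of the Socs1 start in each strain, plotted by distance from the start (dotted line), for basal (grey circles) and IL-4 (red triangles, 2 libraries each). The symbols cross over along the gene, with the promoter lower after IL-4 and the gene end higher in the 4 strains that have a region there.

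Within single strains a region was taken as changed where the mean differed at least 2.5-fold on tags + 1 and one condition held at least 16 tags. Changes in C57 numbered 433 rises and 121 falls (0.639% and 0.179% of its regions), in BALB 127 and 85 (0.235% and 0.157%), in NOD 154 and 191 (0.223% and 0.277%), in PWK 238 and 58 (0.396% and 0.0964%), and in SPRET 155 and 49 (0.283% and 0.0895%). With median-ratio scaling C57 had 729 rises against 56 falls, PWK 458 against 23, NOD 275 against 79, SPRET 182 against 38 and BALB 160 against 65, so the excess of falls in NOD became an excess of rises. Of the rises, 8.4% to 15.6% were promoters and of the falls 21.2% to 25.1%, against 43.3% to 46.0% of the regions with at least 16 tags. Rises that started under 16 tags at basal made up 311, 97, 102, 160 and 107 of these in the same order of strains. Libraries of the 2 conditions did not overlap at 62.7% of the regions with at least 16 tags in C57, 37.2% in BALB, 35.8% in NOD, 43.6% in PWK and 34.1% in SPRET. The strongest rise with libraries apart in C57 was the promoter of Mcf2l, a guanine nucleotide exchange factor, with 0 and 0.49 against 44.6 and 35.1 tags. In BALB it was an intron of Pgap2, which acts in GPI-anchor maturation, with 0.68 and 1.26 against 49.6 and 28.8 tags. In SPRET it was an intron of Il20rb, a receptor chain for cytokines of the IL-10 family, with 1.70 and 1.42 against 194 and 31.0 tags. The Socs1 gene end took that place in NOD and PWK. The strongest falls were the Cx3cr1 promoter in BALB, PWK and SPRET (10.2-fold, 9.51-fold and 7.83-fold lower), an intron of the transcription factor gene Pou2f2 in C57 (181 and 140 against 26.3 and 14.8 tags) and one in Cmah in NOD (17.8 and 170 against 1.85 and 10.5 tags, where the basal libraries stood far apart). With 2 libraries against 2, limma called 14 regions in NOD (0.0203%) and 21 in PWK (0.0349%) and 0 in C57, BALB and SPRET. With the replicate block the counts were 11526 in C57, 1622 in BALB, 239 in NOD, 10348 in PWK and 0 in SPRET. Leaving out any 1 library left 0 calls in NOD, and in PWK 156 without basal replicate 1, 52 without basal replicate 2 and 0 without either IL-4 library. In C57, BALB and SPRET 13232, 3408 and 3378 regions had an unadjusted p below 0.05, and on recovered reads edgeR called 185, 6 and 229 and DESeq2 282, 111 and 54.

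Direction held from strain to strain at the regions that changed most. For each of the 10 pairs of strains, 195 to 311 matched regions were past the fold rule in either strain, and 88.6% (BALB and SPRET) to 96.7% (BALB and NOD) of them had the same direction in both, with a median of 92.4%. Over all regions with at least 16 tags in both, the same share was 70.3% to 89.3% with a median of 78.4%. With median-ratio scaling the medians were 92.2% and 59.2%. No matched region was past the fold rule in opposite directions in 2 strains. With median-ratio scaling 505 regions were past the rule as a rise in any strain and 96 as a fall, none in both directions. With library totals, of 285 regions past the rule as a rise in any strain, 184 passed it in 1 strain alone, and 131 of those 184 were nonetheless higher after IL-4 in all 5. Of 177 falls, 124 passed in 1 strain alone and 82 of those were lower in all 5. Of all matched regions with at least 16 tags, 4.04% were higher in all 5 strains and 50.6% lower by the limma fit with library totals. The 8 regions that rose in each of the 5 strains lay in or near Itgax, Mgl2, Pip5k1c, Tarbp2, Ppfibp2, Plekha3, Ptpre and mt-Nd1. The 4 that fell in each lay at Cx3cr1, Tlr2, Lst1 and Aif1, which encodes the macrophage calcium-binding protein IBA1. With median ratios 14 regions rose in each strain, the same 8 among them, and 2 fell in each, at Cx3cr1 and Tlr2.

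**Figure D5:**
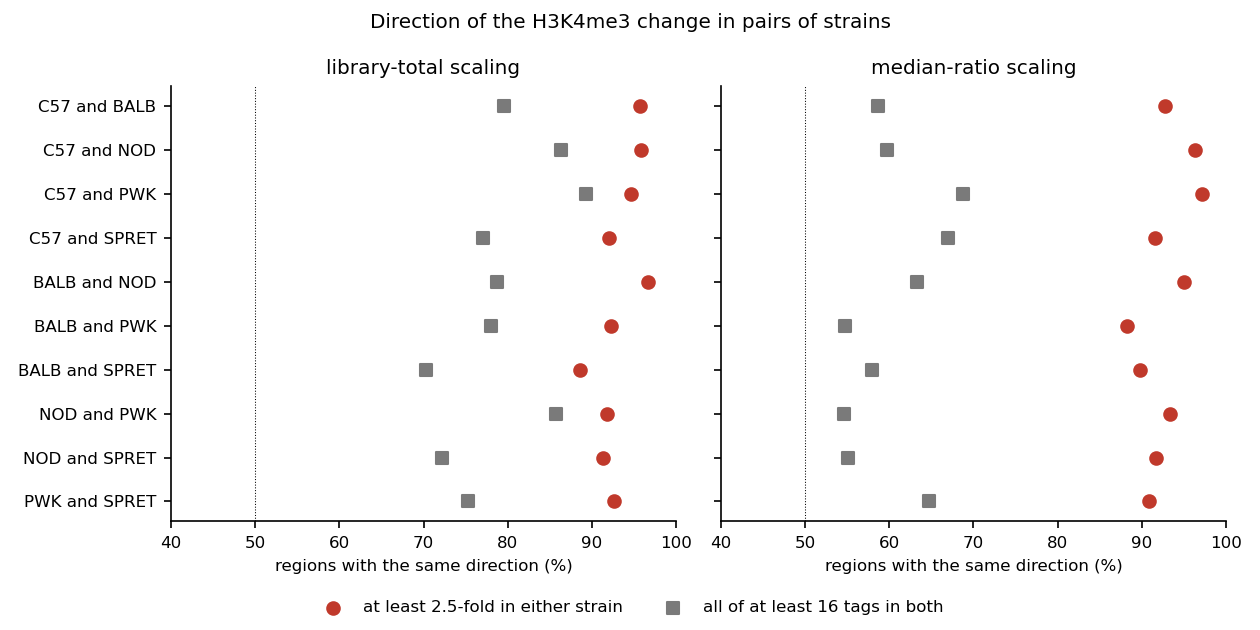
Percentage of matched regions with the same direction of H3K4me3 change in each pair of strains, for regions at least 2.5-fold changed in either strain (red circles) and for all regions with at least 16 tags in both (grey squares), with library totals on the left and median ratios on the right. The red circles stay between 88.3% and 97.2% in both panels, while the grey squares move from a median of 78.4% to 59.2%.

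Whether the size of the change differed between strains was tested by the interaction of strain and IL-4. limma called 1 of 29462 regions (0.00339%), with 471 at an unadjusted p below 0.05, and edgeR called 0. The labels do not say that libraries of the same number belong together, but their values deviated together. With that number fitted as a block limma called 71 regions (0.241%). The 1 region was an intron of Apobec1, the cytidine deaminase that edits apolipoprotein B transcripts (mm10 chr6:122597726-122598726). Its tags were 368 and 294 against 263 and 265 in C57, 267 and 274 against 198 and 194 in BALB, 309 and 465 against 306 and 330 in NOD, 253 and 238 against 102 and 144 in PWK, and 39.1 and 53.1 against 2.98 and 8.72 in SPRET. With library totals the log2 fold changes were -0.32, -0.46, -0.26, -1.01 and -2.90, and SPRET, which also had the least at basal, had the largest fall. The median log2 ratio of regions with at least 16 tags was -0.26 in C57 and -0.24 in NOD, near the Apobec1 values there. In NOD the libraries also overlapped. A fall beyond that of the typical region is therefore not shown in C57 and NOD. Among regions called under the block with either scaling, those nearest to Gm21738 and Gm10800 came directly after Apobec1. The Gm10800 region held 172 to 31937 tags. The Itgax promoter was called there as well. Also among these calls, the promoter of Lipn, which encodes a lipase, had 5.82 and 8.29 against 69.1 and 61.7 tags in C57 and 41.2 and 40.3 against 46.7 and 54.0 in PWK. The promoter of Scimp, an adaptor of antigen-presenting cells, had 4.37 and 14.6 against 66.6 and 37.5 in C57 and 89.2 and 120 against 247 and 183 in SPRET.

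Most of the effector genes of IL-4 that could be measured over the 5 strains rose, and those without a matched region mostly did not pass within strains. Of the 9 effector genes of 29 with a matched promoter region, 8 rose and 0 fell under either scaling, with a median log2 fold change of 0.81 beside -0.21 for all regions with at least 16 tags. This list, like those below, was chosen with earlier results of these data known. Itgax, Mgl2 and Atp6v0d2, already named above, are among the 8, so the counts are a description and not a test. Of all 8321 promoters with at least 16 tags, 0.721% rose and 41.6% fell with library totals and 1.24% rose and 2.62% fell with median ratios, which is the level against which the counts of each list stand. After Itgax and Mgl2 came the promoter of Atp6v0d2, from 77.4 ± 58.8 to 263 ± 93.6 tags (mean ± SD, 10 libraries; log2 fold change 1.97 ± 0.17), and that of Ccl24, an eosinophil chemokine, at 1.41 ± 0.24. Mrc1, the mannose receptor, and Ptgs1, a prostaglandin synthase, had 0.81 ± 0.15 and 0.80 ± 0.17, and Matk and Hbegf also rose. Tgm2, a transglutaminase, had -0.12 and did not pass. Of the 20 effectors with no matched promoter, 12 had one in at least 1 strain. Of their 38 strain values, 27 reached the 16 tags that the fold rule required, and 9 passed it, all as rises. Among those under 16 tags, which could not pass, Rnase2a in PWK and Pdcd1lg2 in SPRET had ratios of 6.59 and 6.06, and Fbp1 in C57 had 0.75. Flt1, a receptor of VEGF, rose in C57 (84.4 and 204 against 482 and 587 tags) and likewise in BALB, NOD and PWK by 3.26-fold to 4.61-fold. Tmem26 rose 3.43-fold to 4.14-fold in C57, BALB and NOD and had 2.05-fold and 1.85-fold in PWK and SPRET. Slc7a2, an arginine transporter, passed the rule in C57 (138 and 141 against 368 and 428 tags) and had ratios of 1.18 to 1.97 in the 3 other strains with a region. Arg1, arginase 1, had a region in C57 only, with 42.2 and 26.3 against 39.1 and 39.8 tags.

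Among genes that carry the IL-4 signal, Cish was the 1 promoter that rose, and under 1 scaling. Of 13 measured of 15, 0 rose and 8 fell with library totals, and with median ratios 1 rose and 2 fell (median log2 fold change -0.28 and -0.07). Il4ra, the receptor chain, had -0.28 ± 0.08 and passed with library totals only, and Stat6 had -0.21 ± 0.08 (limma adjusted p = 0.0568, and 0.0239 with the replicate block). With that block 10 of the 13 fell, as did 8 of 14 housekeeping genes and 9 of 10 macrophage markers. Socs1 and Irs2, an adaptor of the receptor, fell under both scalings. The promoter of Cish, another feedback inhibitor, had 0.14 ± 0.10 with library totals and 0.34 with median ratios (limma adjusted p = 0.302 and 0.000931), beside log2 fold changes of 2.66 in H3K27ac and 2.88 in Pol II.

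Transcription factors of the response were split. Of 20 measured of 24, 4 rose and 8 fell with library totals and 5 rose and 2 fell with median ratios, with a median log2 fold change of -0.19. Irf4 (0.72 ± 0.18), Bhlhe40 (0.68 ± 0.14), Klf4 (0.51 ± 0.11) and Batf3 (0.41 ± 0.12) rose under both. Rxra, the partner receptor of PPARγ, and Nab1, a corepressor of EGR proteins, fell under both, by 0.61 and 0.53. Egr2 was strongly marked in both conditions (442 ± 53.7 and 435 ± 65.9 tags) and had -0.03 ± 0.09 with library totals and 0.18 with median ratios, neither past the test. With median ratios and the replicate block together the Egr2 rise passed (limma adjusted p = 0.00723). Pparg had -0.08 ± 0.09 and did not pass. Of 8 lineage factors measured of 10, among them Spi1 and Cebpa, 0 rose and 3 fell with library totals (4, with Cebpa, under the replicate block), near the share of all promoters, and none passed with median ratios.

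Promoters of inflammatory genes that were matched over strains fell or did not pass under either scaling. Of 18 measured of 28, 0 rose and 11 fell with library totals and 0 rose and 6 fell with median ratios, with a median log2 fold change of -0.34. Beside Cx3cr1, the promoter of Nlrp3 had -0.95 ± 0.13, those of the chemokines Ccl4 and Ccl3 -0.79 ± 0.14 and -0.78 ± 0.11, and those of Tlr2 and Cd14, the co-receptor of lipopolysaccharide, -0.55 ± 0.10 and -0.46 ± 0.09. Tnf fell with library totals only (-0.36 ± 0.09), and Il6, Tlr4 and Il12b had -0.23, -0.15 and -0.12 and did not pass. Ccl2 had 0.65 ± 0.31 and passed with the replicate block only (limma adjusted p = 0.109 and 0.00623). Among those without a matched promoter, Ccl7 passed the fold rule as a rise in BALB (4.07 and 1.89 against 24.8 and 20.7 tags) and Il1a in SPRET (59.5 and 14.9 against 169 and 27.1, overlapping), and Il10 as a fall in NOD. Of 11 interferon-response genes measured of 20, 8 fell with library totals and 0 with median ratios, at a median of -0.26. Mx1, which had no matched promoter, fell past the fold rule in C57 (240 and 79.0 against 93.5 and 20.3 tags, overlapping) and BALB (52.2 and 103.7 against 10.8 and 29.6). Among genes of antigen presentation on MHC class II, 3 of 6 measured rose under both scalings, namely Cd74 (28.6 ± 17.6 to 51.6 ± 31.8 tags), H2-Eb1 and H2-Aa, and the median of the 6 was 0.39.

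The remaining lists held few calls under both scalings, and their falls with library totals stand beside the 41.6% of all promoters. Of 11 lipid genes measured of 15, Fabp4, a fatty-acid carrier, rose under both scalings (log2 fold change 0.59 ± 0.16) and 5 fell with library totals, none of them with median ratios. Of 9 H3K4 methyltransferase and demethylase genes measured of 15, 5 fell with library totals and 1 (Kmt2a) with median ratios. All 14 housekeeping genes were measured, and 4 fell with library totals and 0 with median ratios, at a median of -0.20. Of the macrophage markers 7 fell with library totals, and Aif1 (-1.48 ± 0.16) and Fcgr1, a high-affinity IgG receptor (-1.28 ± 0.25), fell under both scalings. Of 9 genes that the study used as examples, 2 had a matched promoter (Egr2 and Ripk2) and neither passed with library totals or with median ratios alone. That list was chosen by the study on these cells. Mmp12, macrophage elastase, passed the fold rule in C57 (13.1 and 17.6 against 44.0 and 56.2 tags) and NOD.

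STAT6 peaks lay at more of the rises than of the falls. Of the 368 rises outside promoters, a median over strains of 80.7% overlapped a STAT6 peak of IL-4-treated cells, against 61.9% of the 239 falls and 59.3% of all 7278 such regions with at least 16 tags. For EGR2 the shares were 55.4%, 59.0% and 56.5%, and for PPARγ 54.6%, 46.9% and 49.2%. At promoters the STAT6 medians were 61.0% of 59 rises, 50.9% of 218 falls and 27.1% of all 8321 with at least 16 tags. The EGR2 medians there were 69.5%, 75.2% and 72.6%, and those of PPARγ 37.3%, 32.1% and 30.3%. Outside promoters TTCNNNNGAA stood in the central 300 bases of 13.6% of the rises (50 of 368), 7.11% of the falls and 7.34% of all such regions. At promoters it stood in 10.2%, 4.13% and 4.37%. The EGR core GCGTGGG, searched on both strands, stood in 4.35%, 7.95% and 5.81% outside promoters. At promoters it stood in 5.08% of the rises, 16.1% of the falls and 9.60% of all. The Itgax promoter and the introns of Pip5k1c, Atp6v0d2 and Tarbp2 overlapped a 24-hour STAT6 peak in 5 of 5 strains, and the last 3 of these did so at basal in 0, 2 and 1 strains. Such peaks were not particular to rises, since the named falls at Tlr2, Traf3ip3, C5ar1, Clec4n and upstream of Bhlhe40 also had 1 in 5 of 5 strains, and the named rises at Vasn, Mpp6, Ppfibp2 and Tpcn2 had 1 in 0, 1, 2 and 3 strains. No test was made of these shares, and a match of letters is not a bound site.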

How the data were processed

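H3K4me3 ChIP-seq was made from formaldehyde-fixed BMDMs. According to the submitters' notes and the study's methods, the authors mapped reads with Bowtie2 to each strain's genome, shifted coordinates to mm10 and counted with HOMER. The deposited signal values are tags in 1000 bp around reproducible ATAC-seq peak centres, scaled to 10000000 per library, and whole reads were recovered from the scaled values for all of them. The deposited peak lists carry the peak caller's score and were used for position only. Values were tested on log2(tags + 1) with limma 3.58.1 in R 4.3.3, within each strain and over strains with strain as a term, with Benjamini-Hochberg adjustment at 0.05 over all regions of the fit. edgeR 4.0.16 and DESeq2 1.42.0 were run on the recovered reads as alternatives only. Regions were matched across strains by centres within 500 bp, and the interaction of strain and IL-4 was an F test on the same matrix. Single strains were also read by a fold rule of 2.5 on tags + 1 with at least 16 tags in 1 condition. The scripts were tested on simulated data.

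Lists held promoter regions, 1 per gene. Named regions were the 12 strongest shared rises and 12 falls with 1 sign in 5 strains, the strongest of each strain, interaction calls and list members. Members, lists and rules were chosen with earlier results of these data known. Replicates 1 and 2 of the 2 conditions deviated together (r of the same number 0.732 in C57, 0.515 in BALB, 0.531 in NOD, 0.677 in PWK and 0.609 in SPRET), so the number was taken as pairing samples and was fitted as a block. With this block the limma adjusted p of the shared change at mt-Nd1 was 1.30e-60. There NOD replicate 1 went from 143 to 131 tags and replicate 2 from 1.40 to 336. P-values under the block thus do not measure the spread at 1 region alone. Replicates differed by more than counting noise (chi-square per degree of freedom 4.23 to 8.92). Intervals were not computed from reads, since amplified reads are not independent molecules. Other alternatives were the pseudocount, filters, matching distance, left-out libraries and strains, and median-ratio scaling. Sequences are from RefSeq GRCm38.p6. Libraries of other treatments and genotypes were not used here. A few genes are not reported here and were left out of the lists.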

Additional observations from a re-analysis of the deposited data

Results flagged for a closer look

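Apobec1 was picked out because the effect of IL-4 on H3K4me3 in its intron differed between strains by a test of the difference itself (limma, interaction of strain and IL-4, adjusted p = 0.047). With library totals the log2 fold changes were -0.32 in C57, -0.46 in BALB, -0.26 in NOD, -1.01 in PWK and -2.90 in SPRET. The values of C57 and NOD lay near the median log2 ratios of their regions with at least 16 tags (-0.26 and -0.24). With the replicate block, a pairing inferred from these data, the adjusted p of the same limma test was 6.87e-19, and with the block and median-ratio scaling 4.53e-09. Such block p-values do not measure the spread at this region alone. Under a pseudocount of 5, under median-ratio scaling alone, and without the 2 libraries with under 50% of tags in regions, 0 regions were called for the interaction. The SPRET libraries held 39.1 and 53.1 tags at basal against 238 to 465 in the other strains.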

How the results depend on the processing

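Within a strain 16 tags stood for 16.5 to 32.8 reads, and replicates differed by 4.23 to 8.92 times counting noise. For the calls within a strain, edgeR gave 185 in C57, 6 in BALB, 168 in NOD, 82 in PWK and 229 in SPRET, and DESeq2 282, 111, 105, 40 and 54. The replicate block gave 11526, 1622, 239 and 10348 in C57, BALB, NOD and PWK, and with median-ratio scaling the block gave 1577, 76, 1528 and 2557. A mean of at least 16 tags gave 124 in BALB, 116 in NOD, 44 in PWK and 1 in SPRET, a pseudocount of 5 gave 96 in NOD and 35 in PWK, and median-ratio scaling gave 0 in NOD (4147 at an unadjusted p below 0.05). Without 1 library the calls were 0 to 0 in C57, BALB, NOD and SPRET and 0 to 156 in PWK.

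Changes past the fold rule, in the order C57, BALB, NOD, PWK and SPRET, numbered 348, 117, 190, 172 and 132 with a pseudocount of 5, 4617, 2002, 3656, 3845 and 2108 with no filter, 341, 122, 207, 177 and 108 with a filter of 32 tags, and 1078, 529, 769, 617 and 464 with a fold of 2. Median-ratio scaling gave 481 in PWK. Without 1 library they numbered 792 to 1166, 338 to 491, 456 to 809, 498 to 699 and 252 to 503.

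The shared change had 6743 calls, and 2148 with median-ratio scaling, 11212 with the replicate block, 4135 with the block and median ratios, 1975 without the 2 libraries with under 50% of tags in regions, 2260 by edgeR, 2254 by DESeq2, and 1208, 3813 and 2746 without C57, NOD and PWK. Without 1 library it had 3150 to 9220, and moved down by over 1.5 times without any of the 4 C57 libraries (3411 to 4114), NOD basal replicate 2 (3364), NOD IL-4 replicate 2 (3150), PWK IL-4 replicate 1 (3553) or PWK basal replicate 2 (3348). The interaction had 0 calls with a pseudocount of 5, a mean of at least 16 tags, median ratios (756 at an unadjusted p below 0.05), edgeR (561), without the 2 libraries, and without C57, BALB, NOD or SPRET, but 71 with the replicate block and 346 with the block and median ratios. Without 1 library it had 0 to 2. H3K4me2 had 2165 calls with median ratios (1824 rises). The median share of regions with 1 direction in a pair of strains was 96.3% with a pseudocount of 5 and 87.7% with a fold of 2, and 89.9% to 92.0% without 1 library.

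Of 956 values of named regions under alternatives, 952 kept their direction and their side of the threshold. The other 4 were DESeq2 values of mt-Nd1 (1.99, adjusted p = 0.054), mt-Co1 (1.96, adjusted p = 0.084), mt-Nd6 (1.95, adjusted p = 0.055) and Apobec1 (-0.69, adjusted p = 0.065). List genes whose value crossed 0 and was then called as a rise were Egr2 (0.18), Nfil3 (0.18), Abcg1 (0.17) and Pgk1 (0.19) with the replicate block and median ratios, and Ppargc1b (0.20) with median ratios with and without the block. The cause of these differences was not tested. Of 127 list genes, calls were lost at 50 without C57, 46 with median ratios, 43 by DESeq2, 40 by edgeR and 35 without the 2 libraries, and the replicate block added 14 calls and lost 0. It turned no direction. Of the regions named in 1 strain, 11 values lost and 23 gained a call. Chosen after the data were seen were the block with median ratios and the fit without the 2 libraries.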

Other observations

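Some regions passed the fold rule in 4 of 5 strains. Those higher after IL-4 included 2 regions of Actn1, which encodes an actin crosslinker, 2 of Pstpip1 and 2 of Ptgs1, and 1 each at Dolpp1, Pgap2, Fcgr2b and Mpp6. Those lower in 4 strains lay nearest to Bhlhe40, Bmf, Gramd1b and A730009L09Rik. At 10 of the 432 shared rises H3K27ac fell under both scalings, and the nearest genes included Lrp1, an endocytic receptor, Cnr2, a cannabinoid receptor, Fyb and Apbb1ip, which act in integrin adhesion, and Ncoa3, a nuclear receptor coactivator. The rises were spread over 330 nearest genes and the falls over 388.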
